A study of Mus musculus with 12 samples.

Results

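The 42 genes described here encode proteins that build ribosomes in the nucleolus, from the transcription machinery of ribosomal DNA to the factors that process and release the subunits. They were chosen by name. Every deposited transcript whose mouse Ensembl identifier belonged to one of them was summed to the gene. All 42 were found, among 13465 genes in the table, and all 42 passed the filter of at least 1 FPKM (fragments per kilobase of transcript, scaled to the mapped fragments) in at least 3 of the 12 libraries that left 12469 genes for testing. RNA came from mouse renal cortex in 4 groups of 3 libraries. CKO IRI and WT IRI mice had undergone 30 min of ischemia of both kidneys and 48 h of reperfusion, and CKO sham and WT sham mice had sham treatment. CKO mice lacked Gpx3, which encodes a secreted glutathione peroxidase, in renal tubular epithelial cells, and WT mice were wild type. The Cre driver, strain, sex and age are not given in the sources used here. Whether each library is a different animal is not stated, and the p-values describe only how these libraries varied. The series asks how tubular Gpx3 affects gene expression of the kidney during acute injury.

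Ribosome production starts when RNA polymerase I transcribes the ribosomal RNA precursor. Small nucleolar ribonucleoproteins (snoRNPs) then modify the precursor, those with C/D box RNAs by ribose methylation and those with H/ACA box RNAs by pseudouridylation, while separate sets of assembly factors cut, fold and export the small and large subunits. Cells that grow or prepare to divide raise this output, and the transcription factor Myc is a known activator of many of these genes. Surviving tubular cells of the kidney enter the cell cycle after ischemia.

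Summed values lay between 391002 and 422328 FPKM per library, and their read depth is unknown. The targeted gene separated the genotype labels in sham kidneys, with Gpx3 at 2501, 3037 and 3299 FPKM in CKO sham libraries, against 5664, 4476 and 5371 FPKM in WT sham libraries. It did not separate them after IRI. Gpx3 measured 3723, 3025 and 2779 FPKM in the libraries labelled CKO IRI, against 2788, 3568 and 1075 FPKM in the libraries labelled WT IRI, so genotype after IRI is given here as the libraries are labelled. Whole cortex also holds cells in which the deletion was not made, and their part in these Gpx3 values was not tested. The extraction text in the labels speaks of joint tissue, whereas the tissue field says kidney. The 10 proximal tubule markers summed to between 1524 and 5122 FPKM in every library, and of 6 joint and cartilage markers only Comp and Sox9 were in the table, at no more than 8.14 FPKM together.

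In WT kidneys the ribosome biogenesis genes were higher after injury. Of the 42 genes, 24 rose and none fell in WT IRI against WT sham (limma, Benjamini-Hochberg adjusted p under 0.05), where 25.1% of all tested genes rose and 11.9% fell. At an unadjusted p under 0.05 the counts were 30 and 0. The share of all tested genes at an unadjusted p was not counted, here or in the comparisons below. The median change of the 42 genes was 0.65 on the log2(FPKM + 1) scale, beside 0.12 over all tested genes, and 39 of the 42 changes lay above 0. The share of all tested genes above 0 was not counted, here or in the comparisons below. The IRI and sham libraries did not overlap for 31 of the 42 genes, all higher after IRI, where 35.2% of tested genes were higher and 19.5% lower in this way. Tests were two-sided, and changes of genes with low FPKM are understated on this scale. Scaling every library to the same distribution or to the same median ratio moved the median over all tested genes to -0.02 and -0.01 and that of the 42 genes to 0.51 under either scaling, which left 17 and 14 of them called, where 17.7% and 18.0% of all tested genes rose and 17.4% and 17.9% fell. The count changed when a library was left out, which left 2 in its group. It was 10 without WT IRI 13, where 19.1% of tested genes rose, 13 without WT sham 1 (18.1%), 12 without WT sham 2 (17.6%) and 13 without WT sham 3 (17.5%). It was 30 without WT IRI 49 (26.7%) and 28 without CKO IRI 29 (26.1%). Without each other library it was between 18 and 25, where between 21.7% and 25.3% of tested genes rose.

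**Figure D1:**
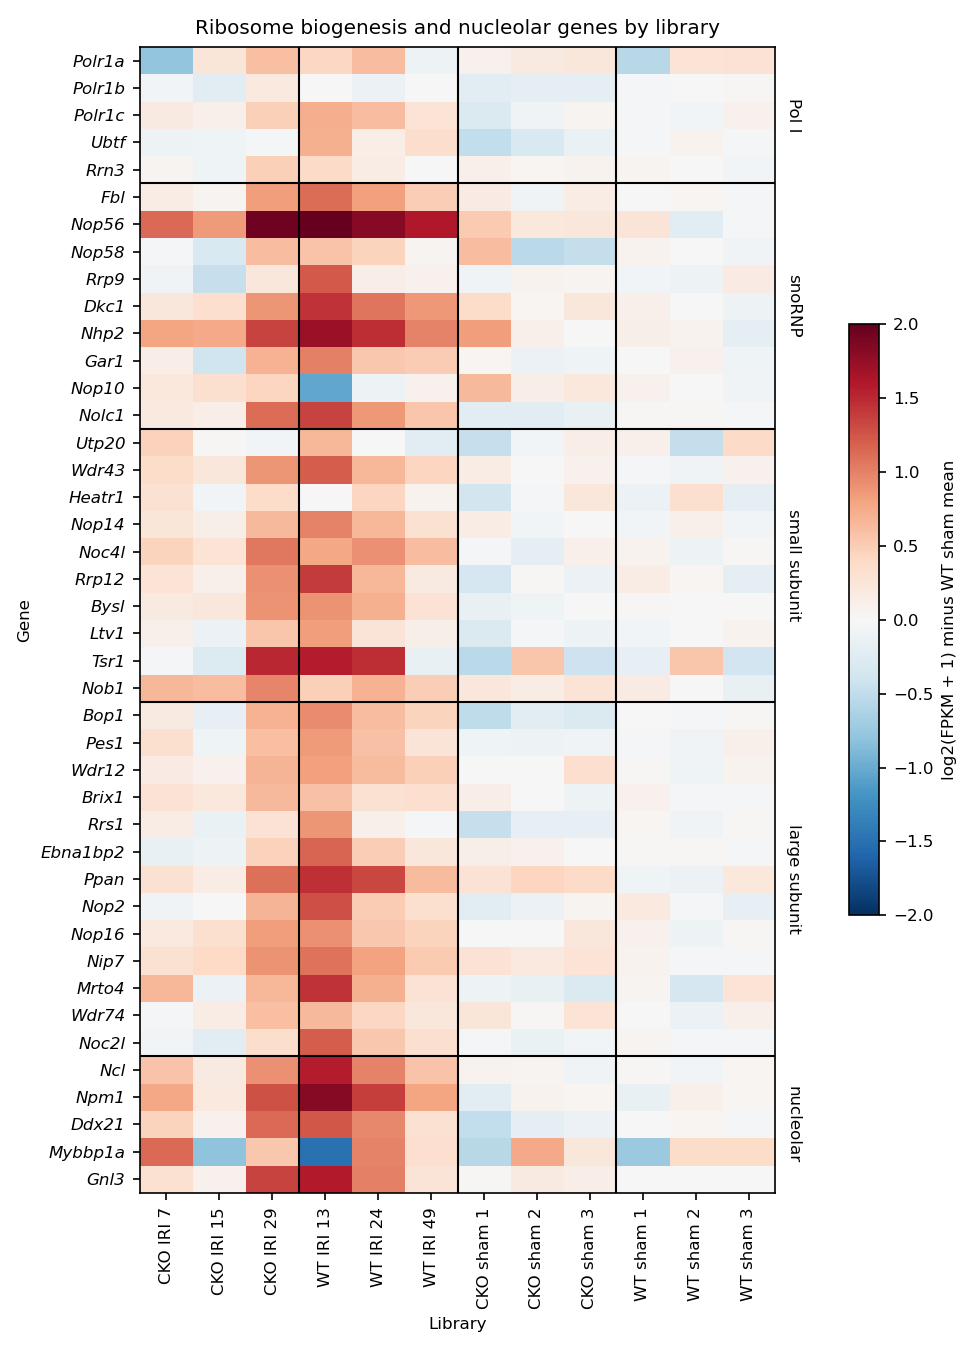
Heat map of the 42 genes (rows, grouped by role) in the 12 libraries (columns). Color gives the log2(FPKM + 1) value minus the mean of the WT sham libraries, cut off at -2 and 2. WT IRI 13 was the highest of the 12 libraries for 32 genes, and its median over the genes was 0.97 above the WT sham mean.

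Promoter sequences are shown for 5 of these genes, because their products are described next and because they differ in the 6-letter motifs known as binding sites of Myc and its partners. RefSeq windows of 300 bases (250 before the gene start and 50 after it, mouse build GRCm38.p6) matched 37 of the 42 genes. The motifs searched were CACGTG, which reads the same on both strands, and CACGCG with its reverse complement CGCGTG, which were counted together and can overlap each other. The window of Nop56 (chr2:130274162-130274461, plus strand), the gene of largest change, held neither motif, and those of Ppan (chr9:20887925-20888224, plus strand) and Nip7 (chr8:107056627-107056926, plus strand), both of which rose, held CGCGTG starting at position 10 and CACGCG starting at position -41 from the gene start. The window of Pes1 (chr11:3963725-3964024, plus strand), which also rose, held both kinds, and that of Utp20 (chr10:88826765-88827064, minus strand), which was not called, held CACGTG. Windows of Dkc1, which rose, and Mybbp1a, which was not called, were also prepared and are not printed. That of Dkc1 held neither motif, and that of Mybbp1a held both kinds. Sequences run 5′ to 3′ on the strand of the gene, with the motifs in capitals.
Nop56: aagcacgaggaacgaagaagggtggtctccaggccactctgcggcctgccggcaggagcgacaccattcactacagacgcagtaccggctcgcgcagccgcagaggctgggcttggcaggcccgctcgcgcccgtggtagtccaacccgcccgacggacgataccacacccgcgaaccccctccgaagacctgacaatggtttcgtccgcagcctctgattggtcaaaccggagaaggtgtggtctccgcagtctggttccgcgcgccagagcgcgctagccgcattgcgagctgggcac
Ppan: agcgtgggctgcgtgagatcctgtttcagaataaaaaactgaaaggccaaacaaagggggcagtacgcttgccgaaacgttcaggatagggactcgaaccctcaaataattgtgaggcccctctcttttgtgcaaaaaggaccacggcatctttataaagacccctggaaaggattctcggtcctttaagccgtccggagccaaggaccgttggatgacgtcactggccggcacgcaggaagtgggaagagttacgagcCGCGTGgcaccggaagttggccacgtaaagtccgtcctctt
Nip7: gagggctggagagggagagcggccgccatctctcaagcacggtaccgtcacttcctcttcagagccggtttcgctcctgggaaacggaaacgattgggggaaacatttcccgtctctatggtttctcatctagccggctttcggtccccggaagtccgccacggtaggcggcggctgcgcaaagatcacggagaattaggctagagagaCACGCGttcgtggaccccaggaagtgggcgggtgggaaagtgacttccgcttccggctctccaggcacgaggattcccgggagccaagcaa
Pes1: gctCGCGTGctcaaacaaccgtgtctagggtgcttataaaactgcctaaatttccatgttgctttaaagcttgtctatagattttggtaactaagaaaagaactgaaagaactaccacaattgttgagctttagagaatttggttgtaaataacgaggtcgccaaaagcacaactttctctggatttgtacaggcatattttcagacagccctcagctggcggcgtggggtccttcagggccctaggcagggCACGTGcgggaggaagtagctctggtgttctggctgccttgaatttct
Utp20: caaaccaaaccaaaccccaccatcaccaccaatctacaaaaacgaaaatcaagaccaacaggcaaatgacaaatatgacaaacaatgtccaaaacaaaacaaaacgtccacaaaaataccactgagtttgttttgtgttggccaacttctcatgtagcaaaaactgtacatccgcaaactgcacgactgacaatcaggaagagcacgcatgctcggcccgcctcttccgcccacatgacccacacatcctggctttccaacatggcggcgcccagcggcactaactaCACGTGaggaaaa

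CACGTG stood in windows of 8 of the 37 genes (21.6%). Of tested genes with a window 11.6% held it, and of all genes with a window 8.09%. Of the genes that rose in WT kidneys with a window, 2 of 21 held it (Pes1 and Wdr43), and of those not called, 6 of 16 (Ltv1, Mybbp1a, Nop2, Rrn3, Tsr1 and Utp20). CACGCG or its reverse complement stood in windows of 13 of the 37 genes (35.1%). Of tested genes with a window 19.5% held it, and of all genes with a window 10.5%. It was in windows of 10 of the 21 genes that rose and of 3 of the 16 genes not called. Ubtf among these 3, and Nop2 among the 6 above, narrowly missed the threshold (limma adjusted p = 0.055 and 0.054). The motif shares of all tested genes were not split by call. These are counts of letters, in which a gene counted if any of its windows held the motif, with no test and no measurement of binding.

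Among the 5 genes of RNA polymerase I transcription, 1 rose in WT kidneys, where 25.1% of all tested genes rose, and the median change was 0.31. Polr1c, a subunit shared by RNA polymerases I and III (chr17:46243920-46248054, mouse build GRCm38), measured 44.9, 41.7 and 32.5 FPKM in WT IRI 13, 24 and 49, against 26.0, 25.8 and 28.3 FPKM in WT sham 1, 2 and 3. Every IRI library lay above every sham library, and the change was 0.54 ± 0.15 (log2, SE; limma adjusted p = 0.019). It was not called without each of WT IRI 13 and 24 and WT sham 1 and 2, with limma adjusted p between 0.056 and 0.064. Ubtf, the factor that binds ribosomal DNA and keeps it open, measured 55.6, 36.9 and 43.0 FPKM in WT IRI libraries, against 32.4, 35.2 and 32.7 FPKM in WT sham libraries. These groups did not overlap either, but the change of 0.40 ± 0.15 missed the threshold (limma adjusted p = 0.055), and it was 0.53 (limma adjusted p = 0.023) without WT IRI 24. Polr1b, a catalytic subunit of the polymerase, measured 8.15, 7.46 and 8.20 FPKM in WT IRI libraries, against 7.96, 8.25 and 8.35 FPKM in WT sham libraries, a change of -0.04 ± 0.12 (limma adjusted p = 0.81). Polr1a, the largest catalytic subunit, and Rrn3, the initiation factor that brings the polymerase to its promoter, had changes of 0.31 and 0.17 and were not called (limma adjusted p = 0.51 and 0.40).

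Among the 9 snoRNP genes, 6 rose in WT kidneys, where 25.1% of all tested genes rose. The median change of the 9 was 0.81, and they held the largest change of the 42. Nop56, a scaffold protein of C/D box snoRNPs (chr2:130274430-130279313), measured 71.6, 37.3 and 31.8 FPKM in WT IRI 13, 24 and 49, against 12, 8.32 and 9.51 FPKM in WT sham libraries. The lowest IRI library exceeded the highest sham library, the group means differed 4.71-fold (46.9 ± 21.6 and 9.94 ± 1.87 FPKM, SD, n = 3 each), and the change was 2.05 ± 0.32 (limma adjusted p = 0.0012). Dkc1, the pseudouridine synthase of H/ACA box snoRNPs and a part of telomerase (chrX:75095854-75109777), measured 18.9, 14.2 and 12.2 FPKM in WT IRI libraries, against 6.82, 6.31 and 5.77 FPKM in WT sham libraries. Its groups were likewise apart, by 1.13 ± 0.20 (limma adjusted p = 0.0022). Nhp2, an RNA-binding partner of Dkc1, rose by 1.39 ± 0.26 (limma adjusted p = 0.0027). Fbl, the methyltransferase of C/D box snoRNPs, rose by 0.81 ± 0.21 (limma adjusted p = 0.013). Nolc1, a phosphoprotein that binds both kinds of snoRNP, and Gar1, another H/ACA protein, rose by 0.93 and 0.68.

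The other 3 snoRNP genes were not called in WT kidneys. Nop58, the partner of Nop56 in C/D box particles (chr1:59684971-59719044), measured 9.04, 8.18 and 6.01 FPKM in WT IRI libraries, against 6.08, 5.76 and 5.45 FPKM in WT sham libraries, a change of 0.36 ± 0.31 (limma adjusted p = 0.40). Rrp9, a protein of the snoRNP that takes part in the early cuts of the precursor, measured 8.76 to 20.3 FPKM in WT IRI libraries and 7.48 to 9.25 FPKM in WT sham libraries (limma adjusted p = 0.19). Nop10, the smallest H/ACA protein (chr2:112261926-112263269), is named because its values were seen to run the other way. It measured 27.1, 53.0 and 60.4 FPKM in WT IRI 13, 24 and 49, against 60.4, 56.3 and 54.0 FPKM in WT sham libraries. The change of -0.35 ± 0.25 was not called (limma adjusted p = 0.30), and its lowest value was in WT IRI 13, the library in which Nop56, Dkc1 and Nhp2 were highest. Of the H/ACA core proteins, which occur together in the particle, Dkc1, Nhp2 and Gar1 rose and Nop10 was not called.

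Among the 10 small-subunit genes, 5 rose in WT kidneys (Nob1, Noc4l, Nop14, Wdr43 and Bysl), where 25.1% of all tested genes rose. The median change of the 10 was 0.65. Noc4l, an assembly factor that in yeast works with Nop14 (chr5:110648418-110653417), measured 11.8, 13.1 and 10.5 FPKM in WT IRI libraries, against 6.89, 5.98 and 6.63 FPKM in WT sham libraries. The groups did not overlap, and the change was 0.77 ± 0.19 (limma adjusted p = 0.010). Nob1, the endonuclease that makes the last cut of the small-subunit RNA (chr8:107412486-107425051), measured 8.22, 9.69 and 8.37 FPKM in WT IRI libraries, against 6.45, 5.56 and 4.96 FPKM in WT sham libraries. For Nob1 too the groups were apart, by 0.55 ± 0.14 (limma adjusted p = 0.011). Wdr43, a protein of the early processing complex, Nop14 and Bysl, a factor of late small-subunit maturation, rose by 0.77, 0.66 and 0.64. Utp20, a large scaffold of the early processing complex, measured 9.88, 5.87 and 4.89 FPKM in WT IRI libraries, against 6.37, 3.91 and 7.89 FPKM in WT sham libraries. Its groups overlapped, and the change was 0.15 ± 0.28 (limma adjusted p = 0.70). Rrp12, Ltv1 and Tsr1, which act in export and late maturation, and Heatr1, which acts in the early processing complex, had changes between 0.17 and 0.97 and were not called. The largest of these, of Tsr1, came with values of 9.85, 9.25 and 2.31 FPKM in WT IRI 13, 24 and 49, against 2.27, 4.39 and 1.80 FPKM in WT sham libraries, and was called only without WT IRI 49 (1.52, limma adjusted p = 0.040).

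Among the 13 large-subunit genes, 9 rose in WT kidneys, where 25.1% of all tested genes rose, and the median change was 0.65. Nip7, a factor of precursor processing (chr8:107056877-107060931), measured 13.2, 10.7 and 8.60 FPKM in WT IRI 13, 24 and 49, against 6.08, 5.56 and 5.52 FPKM in WT sham libraries. All 3 IRI libraries were higher, by 0.80 ± 0.18 (limma adjusted p = 0.0066). Ppan, the mouse counterpart of a yeast large-subunit assembly factor (chr9:20888175-20892178), measured 19.8, 18.1 and 10.7 FPKM in WT IRI libraries, against 6.08, 5.94 and 7.75 FPKM in WT sham libraries, a change of 1.14 ± 0.26 (limma adjusted p = 0.0077). Bop1, Pes1 and Wdr12 form 1 complex needed for large-subunit processing, and all 3 rose, by 0.67, 0.57 and 0.65. Bop1 measured 31.9, 25.3 and 22.5 FPKM in WT IRI libraries, against 16.4, 15.7 and 16.4 FPKM in WT sham libraries. Noc2l, a factor that in yeast accompanies the large subunit out of the nucleolus, measured 54.0, 33.4 and 28.6 FPKM in WT IRI libraries, against 23.6, 22.2 and 22.4 FPKM in WT sham libraries, and rose by 0.69 ± 0.21 (limma adjusted p = 0.026). Bop1 and Noc2l were not called without each of WT IRI 13 and the WT sham libraries, with limma adjusted p between 0.059 and 0.090. Brix1, Ebna1bp2 and Nop16, further assembly factors, rose by 0.41, 0.63 and 0.64. Nop2, an RNA methyltransferase, Mrto4, which holds the place of a stalk protein, Wdr74 and Rrs1 had changes of 0.70, 0.81, 0.43 and 0.32 and were not called. Of these, Rrs1 measured 31.0, 17.7 and 16.1 FPKM in WT IRI libraries, against 16.9, 15.6 and 16.7 FPKM in WT sham libraries, with overlapping groups.

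Of the 5 nucleolar proteins with several roles, 3 rose in WT kidneys, where 25.1% of all tested genes rose, and the median change was 0.95. Npm1, nucleophosmin, had the highest FPKM of the 42 genes in every library except CKO sham 1, where Nop10 did, and is a nucleolar chaperone that binds histones and ribosomal proteins (chr11:33152287-33163206). It measured 331, 246 and 162 FPKM in WT IRI 13, 24 and 49, against 84.7, 100.7 and 96.0 FPKM in WT sham libraries. Every IRI library exceeded every sham library, the means stood 2.63-fold apart, and the change was 1.33 ± 0.28 (limma adjusted p = 0.0054). Npm1 has processed copies elsewhere in the genome, and the sources used here do not say how reads were divided among them. Ncl, nucleolin, which binds the ribosomal RNA precursor, measured 89.3, 59.5 and 44.0 FPKM in WT IRI libraries, against 29.7, 28.3 and 30.0 FPKM in WT sham libraries, and rose by 1.05 ± 0.24 (limma adjusted p = 0.0068). Ddx21, an RNA helicase of the nucleolus, rose by 0.84 ± 0.28 (limma adjusted p = 0.035). Gnl3, nucleostemin, a GTPase of proliferating cells, had a change of 0.95 that narrowly missed the threshold (limma adjusted p = 0.052). Mybbp1a, a nucleolar protein that binds Myb, measured 2.60, 19.2 and 11.8 FPKM in WT IRI 13, 24 and 49, against 5.04, 12.1 and 12.1 FPKM in WT sham libraries. Its values crossed widely in every group, and the change was -0.05 ± 0.66 (limma adjusted p = 0.96).

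**Figure D2:**
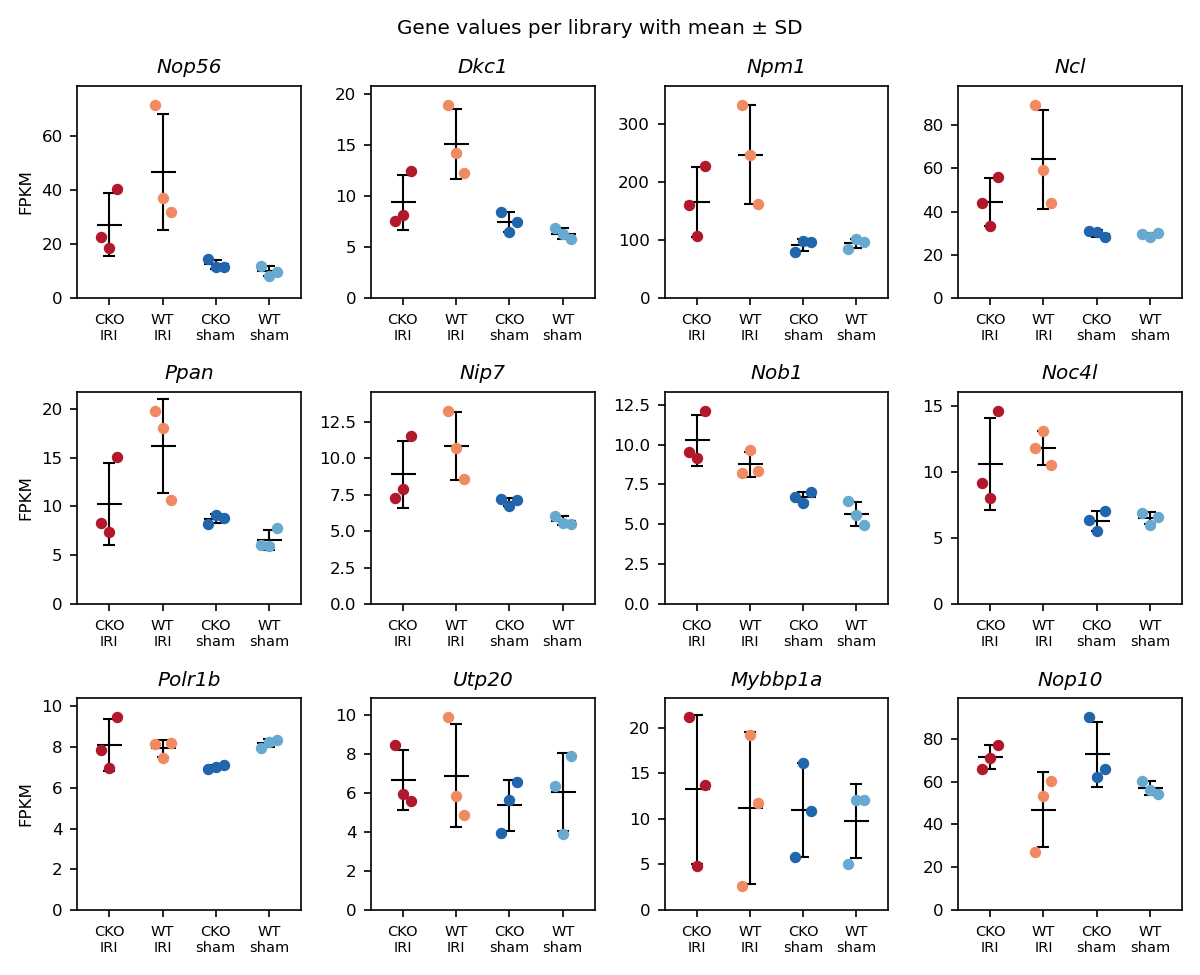
Values in FPKM (vertical axes) of 12 of the genes in CKO IRI, WT IRI, CKO sham and WT sham libraries. Points are libraries, in the order of their numbers, and bars give the mean ± SD of 3. Nop56, Dkc1, Npm1 and Ncl lie higher in all 3 WT IRI libraries than in any WT sham library, while Polr1b, Utp20, Mybbp1a and Nop10 overlap between those groups.

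For 10 of the 24 genes that rose in WT kidneys the call held under the 21 alternative settings tried: Fbl, Nop56, Dkc1, Nhp2, Noc4l, Nob1, Ppan, Nip7, Ncl and Npm1. All 24 kept their direction under those settings. For 11 of the 42 genes another gene of the table lies on the opposite strand of the same place, such as Idh3b beside Nop56, Mpp1 beside Dkc1, Spns2 beside Mybbp1a and Srr beside Tsr1. The library kit marks strand, but the sources used here do not say whether quantification used it, so reads of such pairs may have been shared. For 8 of the genes, Nop56, Ncl and Gnl3 among them, snoRNA genes overlap the span of the gene on the same strand.

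In CKO kidneys the same comparison gave 1 call. Nob1 rose in CKO IRI against CKO sham, where 5.70% of tested genes rose and 1.48% fell, and none of the 42 genes fell. At an unadjusted p under 0.05 the counts were 12 and 0. Nob1 measured 9.54, 9.15 and 12.1 FPKM in CKO IRI 7, 15 and 29, against 6.74, 6.37 and 7.0 FPKM in CKO sham 1, 2 and 3, a change of 0.54 ± 0.14 (limma adjusted p = 0.040). The median change of the 42 genes was 0.31, beside 0.08 over all tested genes, 39 changes lay above 0, and the groups did not overlap for 16 genes, all higher after IRI, where 21.4% of tested genes were higher and 10.1% lower in this way. Under the same-distribution and median-ratio scalings the median was 0.21 and 0.22, no gene of the 42 was called, and 4.12% and 4.28% of tested genes rose and 2.37% and 2.09% fell. The median was 0.17 without CKO IRI 29. Without CKO IRI 15, 6 genes were called, where 8.70% of tested genes rose, and without WT IRI 13, which enters through the shared spread, 2 were, where 7.26% rose. With libraries weighted by their spread (limma array weights) 12 genes were called, where 18.2% of tested genes rose. None was called without WT sham 1, 2 or 3, CKO sham 1, 2 or 3, CKO IRI 7 or CKO IRI 29 in turn, where the limma adjusted p of Nob1 was between 0.055 and 0.14 and between 2.66% and 3.98% of tested genes rose.

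Nop56 measured 22.7, 18.5 and 40.6 FPKM in CKO IRI 7, 15 and 29, against 14.5, 11.6 and 11.6 FPKM in CKO sham libraries. All 3 CKO IRI libraries were above the sham libraries, with a change of 0.99 ± 0.32 that was not called (limma adjusted p = 0.090). It was called without CKO IRI 15 (1.22, limma adjusted p = 0.047) and without WT IRI 13 (0.99, limma adjusted p = 0.042). Noc4l measured 9.18, 8.05 and 14.6 FPKM in CKO IRI libraries, against 6.40, 5.52 and 7.03 FPKM in CKO sham libraries, with a change of 0.63 ± 0.19 (limma adjusted p = 0.072; 0.026 without CKO IRI 15). Npm1 measured 160.4, 107 and 227 FPKM in CKO IRI libraries, against 79.6, 97.8 and 96.2 FPKM in CKO sham libraries. Its groups were apart, with a change of 0.79 ± 0.28 (limma adjusted p = 0.12). For Dkc1, CKO IRI libraries measured 7.51, 8.17 and 12.4 FPKM, against 8.44, 6.46 and 7.49 FPKM in CKO sham libraries, and for Ppan 8.34, 7.33 and 15.1 FPKM, against 8.22, 9.16 and 8.83 FPKM. In both genes CKO IRI 29 was the only library above all CKO sham libraries, and the changes were 0.27 and 0.15 (limma adjusted p = 0.45 and 0.77).

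**Figure D3:**
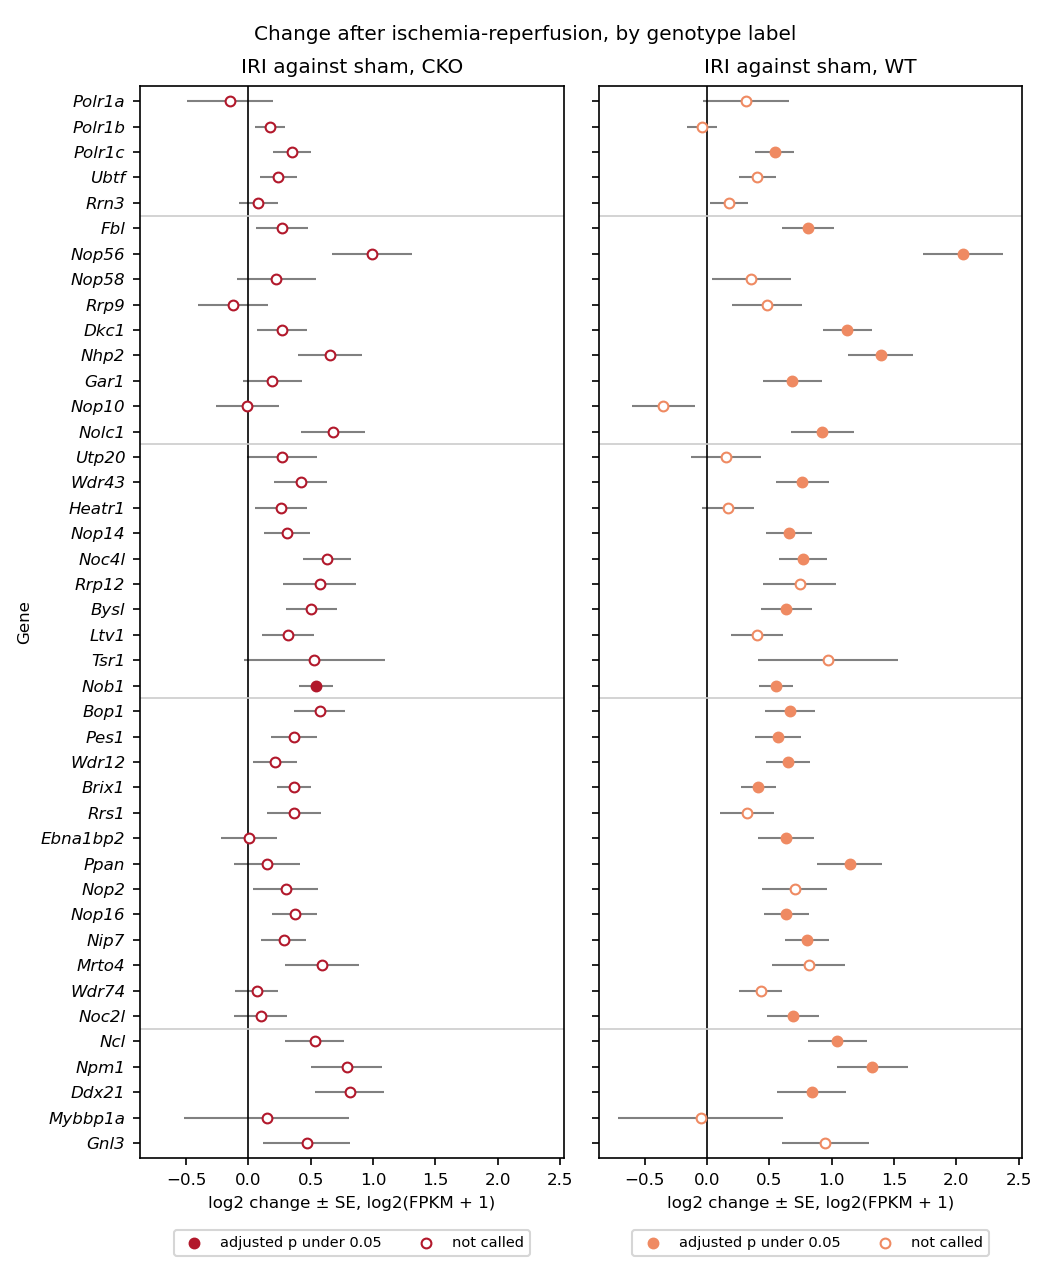
Change after ischemia-reperfusion of each of the 42 genes in CKO kidneys (left) and WT kidneys (right). Points give the log2(FPKM + 1) difference of IRI minus sham, lines its SE, and filled points an adjusted p under 0.05, which 1 gene has on the left and 24 on the right.

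Genotype in sham kidneys gave no call among the 42 genes. In CKO sham against WT sham 0.0561% of tested genes rose and 0.0321% fell, the median change of the 42 genes was -0.01, and at an unadjusted p under 0.05 limma gave 2 higher and 5 lower. The groups did not overlap for 10 genes, 4 of them higher and 6 lower, where 28.4% of tested genes showed this. Bop1, of smallest p, measured 11.0, 13.7 and 13.1 FPKM in CKO sham libraries, against 16.4, 15.7 and 16.4 FPKM in WT sham libraries, a change of -0.34 ± 0.10 (limma adjusted p = 0.25). Ppan measured 8.22, 9.16 and 8.83 FPKM in CKO sham libraries, against 6.08, 5.94 and 7.75 FPKM in WT sham libraries, with a change of 0.37 ± 0.12 (limma adjusted p = 0.27). Nip7 measured 7.21, 6.72 and 7.12 FPKM in CKO sham libraries, against 6.08, 5.56 and 5.52 FPKM in WT sham libraries, with a change of 0.25 ± 0.08 (limma adjusted p = 0.27). In all 3 the sham libraries of the genotypes did not overlap, but none passed the correction over all tested genes.

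After IRI, genotype gave no call either, among the 42 genes or among all tested genes (0.00% higher and 0.00% lower in CKO IRI against WT IRI). At an unadjusted p under 0.05 limma gave 0 higher and 3 lower, and 0 were called under any alternative tried. The mean of the libraries labelled CKO IRI was below that of the libraries labelled WT IRI in 37 of the 42 genes, with a median change of -0.31, beside -0.05 over all tested genes. The genes moved together from library to library, so these are not 37 separate observations. The share of all tested genes with a lower mean was not counted. The median was -0.17 without WT IRI 13 and -0.18 without CKO IRI 15, and -0.50 without WT IRI 49 and -0.52 without CKO IRI 29. The spread within each group was wide, and only Ubtf (lower) and Nop10 (higher) did not overlap, where 11.5% and 7.11% of tested genes were lower and higher in this way. Ubtf measured 31.3, 31.4 and 32.9 FPKM in CKO IRI libraries, against 55.6, 36.9 and 43.0 FPKM in WT IRI libraries, a change of -0.47 ± 0.19 (limma adjusted p = 0.48). Its value is a sum of 9 transcripts whose shares shifted between libraries. Ubtf-204 measured 13.9, 16.3 and 14.9 FPKM in CKO IRI 7, 15 and 29 and no more than 2.45 FPKM in any other library. Ubtf-205 measured 29.3 FPKM in WT IRI 49, against 0.014 and 0 FPKM in WT IRI 13 and 24. Dkc1 had a change of -0.65 ± 0.25 and Noc2l of -0.66 ± 0.28 (limma adjusted p = 0.48 for each), where Noc2l measured 21.8, 19.5 and 29.1 FPKM in CKO IRI libraries, against 54.0, 33.4 and 28.6 FPKM in WT IRI libraries. For Nop56 the difference was -0.75 ± 0.39 (limma adjusted p = 0.50), with CKO IRI 29 at 40.6 FPKM above WT IRI 24 and 49.

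The interaction term, the only test of whether IRI changed these genes differently by genotype, called none of the 42, where 0.00802% of tested genes were called in each direction. At an unadjusted p under 0.05 limma gave 0 higher and 3 lower. The median difference between the responses, CKO minus WT, was -0.26, beside -0.06 over all tested genes, and 6 of the 42 lay above 0. The median was -0.12 without WT IRI 13 and -0.13 without CKO IRI 15, and -0.46 without WT IRI 49 and -0.48 without CKO IRI 29. The smallest p were those of Dkc1 (-0.86 ± 0.28, limma adjusted p = 0.20), Ppan (-0.99 ± 0.37, limma adjusted p = 0.23) and Nop56 (-1.06 ± 0.46, limma adjusted p = 0.26). With array weights Ppan (-1.24, limma adjusted p = 0.031) and Dkc1 (-0.92, limma adjusted p = 0.036) were called, where 3.96% of tested genes were called lower and 2.78% higher. The 24 calls in WT kidneys against 1 in CKO kidneys therefore come without a called difference between the genotypes. These comparisons share libraries, so their values are not independent of each other.

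Within each IRI group the genes moved together from library to library. Their summed values were 821, 696 and 1146 FPKM in CKO IRI 7, 15 and 29, and 1455, 1117 and 881 FPKM in WT IRI 13, 24 and 49, against 656, 636 and 651 FPKM in CKO sham libraries and 634, 634 and 639 FPKM in WT sham libraries. Every IRI library lay above every sham library, and the IRI groups overlapped. Among the WT IRI libraries, WT IRI 13 was the highest for 35 genes and WT IRI 49 the lowest for 35, with 33 genes showing both. Among the CKO IRI libraries, CKO IRI 29 was the highest for 39 genes and CKO IRI 15 the lowest for 31. CKO IRI 29 exceeded WT IRI 49 in 41 of the 42 genes. For this pair, picked from these same values as the extremes of their groups, the order went against that of the group means.

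Marker lists of other kinds also differed among these libraries. The 10 proximal tubule markers summed to 3126, 3261 and 2181 FPKM in CKO IRI 7, 15 and 29, and to 1524, 1883 and 3195 FPKM in WT IRI 13, 24 and 49, against 3904 to 5122 FPKM in CKO sham libraries and 4563 to 4910 FPKM in WT sham libraries. They were lowest in WT IRI 13, where the ribosome biogenesis genes were highest. The 8 tubular injury markers (Havcr1, Lcn2 and others) summed to 1441, 720.2 and 2488 FPKM in CKO IRI libraries, and to 2868, 3251 and 1536 FPKM in WT IRI libraries, against 264 to 341 FPKM in CKO sham libraries and 342 to 344 FPKM in WT sham libraries. The 20 cell cycle genes summed to 561, 327 and 595 FPKM in CKO IRI libraries, and to 741, 647 and 638 FPKM in WT IRI libraries, against 62.5 to 69.0 FPKM in CKO sham libraries and 57.1 to 63.9 FPKM in WT sham libraries. Of these 20, 19 rose in CKO kidneys and 20 in WT kidneys, where 5.70% and 25.1% of all tested genes rose. CKO IRI 15 was the lowest IRI library in all 3 of the sums for ribosome biogenesis, injury and cell cycle.

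Markers of further cell types were also measured. The 12 macrophage and monocyte markers, all in the table, summed to 174 to 257 FPKM in CKO IRI libraries and 167 to 337 FPKM in WT IRI libraries, against 146 to 211 FPKM in CKO sham libraries and 114 to 132 FPKM in WT sham libraries. The 8 fibroblast markers summed to 182 to 297 FPKM in CKO IRI libraries and 149 to 424 FPKM in WT IRI libraries, against 60.2 to 96.3 FPKM in CKO sham libraries and 54.9 to 63.6 FPKM in WT sham libraries. Of 6 neutrophil markers only S100a8 and S100a9 were in the table, at no more than 18.6 FPKM together, and of 10 T, NK and B cell markers 6 were, at no more than 7.87 FPKM together. The 7 endothelial markers summed to 30.1 to 76.0 FPKM in CKO IRI libraries and 35.4 to 63.3 FPKM in WT IRI libraries, against 98.0 to 141 FPKM in CKO sham libraries and 91.5 to 93.9 FPKM in WT sham libraries. Macrophage and monocyte markers summed to 322, 167 and 337 FPKM in WT IRI 13, 24 and 49. The ribosome biogenesis genes summed to 1455, 1117 and 881 FPKM there. In CKO IRI 7, 15 and 29 the sums were 239, 257 and 174 FPKM for those markers and 821, 696 and 1146 FPKM for the ribosome biogenesis genes. The 8 loop of Henle and distal nephron markers summed to 1110.4 to 2563 FPKM in CKO IRI libraries and 1376 to 1990.5 FPKM in WT IRI libraries, against 1643 to 2097 FPKM in CKO sham libraries and 1814 to 1863 FPKM in WT sham libraries. The 5 podocyte markers and the 5 red blood cell genes summed to between 41.6 and 117 FPKM and between 24.8 and 725 FPKM over the 12 libraries. The part of cell makeup in the changes of the 42 genes was not tested, and in bulk tissue fewer cells of a type and less RNA per cell cannot be told apart.

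**Figure D4:**
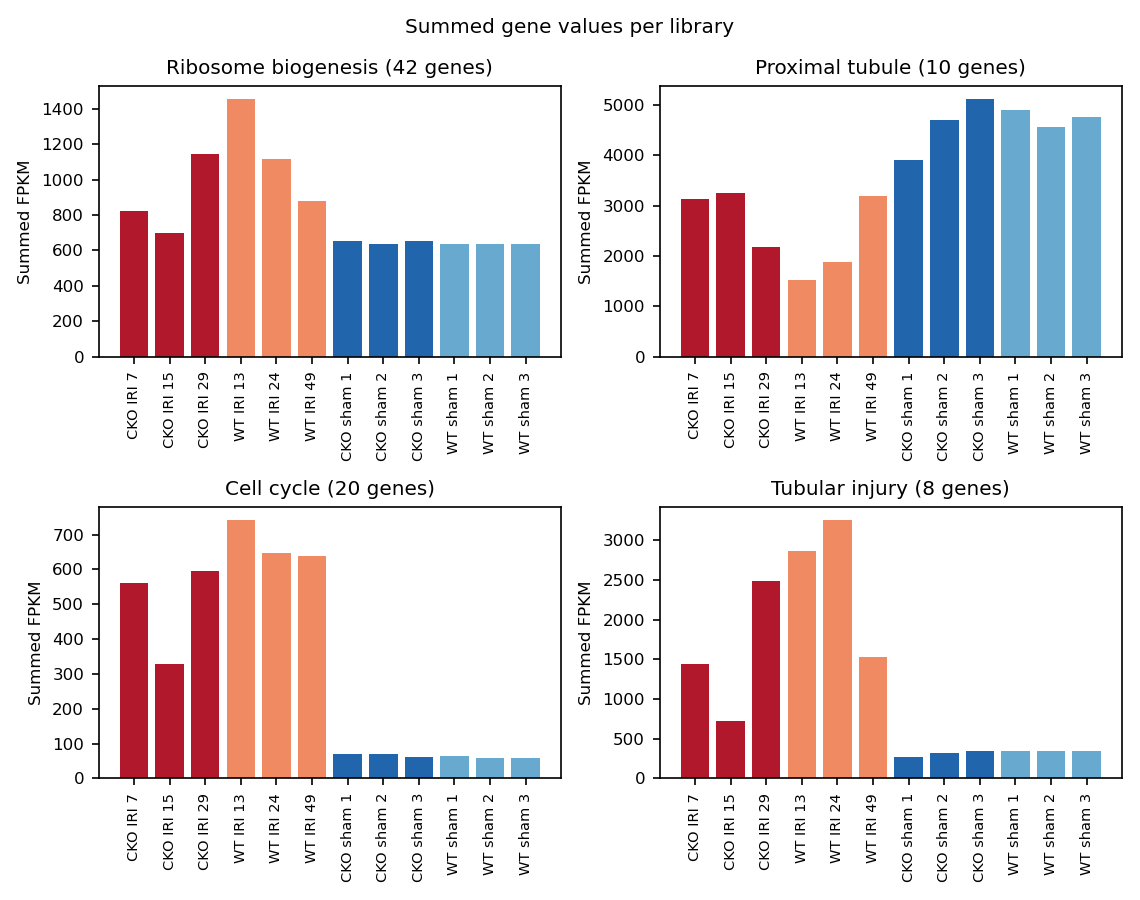
Summed FPKM (vertical axes) of the 42 ribosome biogenesis genes and of the proximal tubule, cell cycle and tubular injury lists in each library. The 42 genes are highest in WT IRI 13 at 1455 FPKM, where proximal tubule markers are lowest at 1524 FPKM.

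The spread of the 42 genes was larger after IRI. The median SD on the log2 scale was 0.35 in CKO IRI and 0.37 in WT IRI libraries, against 0.14 in CKO sham and 0.09 in WT sham libraries. Over all tested genes the medians were 0.23, 0.27, 0.17 and 0.10 in the same order of groups. Mybbp1a had the largest SD of the 42 in every group, from 0.65 in WT sham to 1.29 in WT IRI libraries. Its values were 21.2, 4.82 and 13.8 FPKM in CKO IRI libraries and 5.87, 16.2 and 10.9 FPKM in CKO sham libraries, so that single libraries stood several-fold apart also without injury. Tsr1 had the next largest SD in all groups except CKO sham, where it was Nop58.

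The table lists 81 transcripts of the 42 genes, and 24 genes have only 1. Nop56 has 5, of which Nop56-209 averaged 10.8 FPKM in CKO IRI and 25.9 FPKM in WT IRI libraries, against 4.66 FPKM in CKO sham and 3.30 FPKM in WT sham libraries. It was 55.3% of the gene in WT IRI against 33.2% in WT sham libraries, and 39.7% in CKO IRI against 37.1% in CKO sham libraries. Nop58 showed a switch between transcripts that its gene sum does not show. Nop58-201 measured 0.28, 0.23 and 0.90 FPKM in CKO IRI 7, 15 and 29 and 0.17, 0.33 and 0.14 FPKM in WT IRI libraries, against 5.73, 0.28 and 0.15 FPKM in CKO sham libraries and 3.42, 3.05 and 3.04 FPKM in WT sham libraries. All 3 WT sham libraries were above 3 FPKM and all 6 IRI libraries below 1 FPKM, while CKO sham 1 was high and CKO sham 2 and 3 were low. Nop58-215 averaged 4.93 FPKM in CKO IRI and 6.01 FPKM in WT IRI libraries, against 2.56 FPKM in CKO sham and 1.80 FPKM in WT sham libraries. The minor form Npm1-204 made up 29.1% of the gene in CKO IRI and 28.2% in WT IRI libraries, against 15.5% in CKO sham and 14.6% in WT sham libraries. Transcript levels were estimated by the authors' assembler from reads that forms of a gene share, and no test was made on them.

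**Figure D5:**
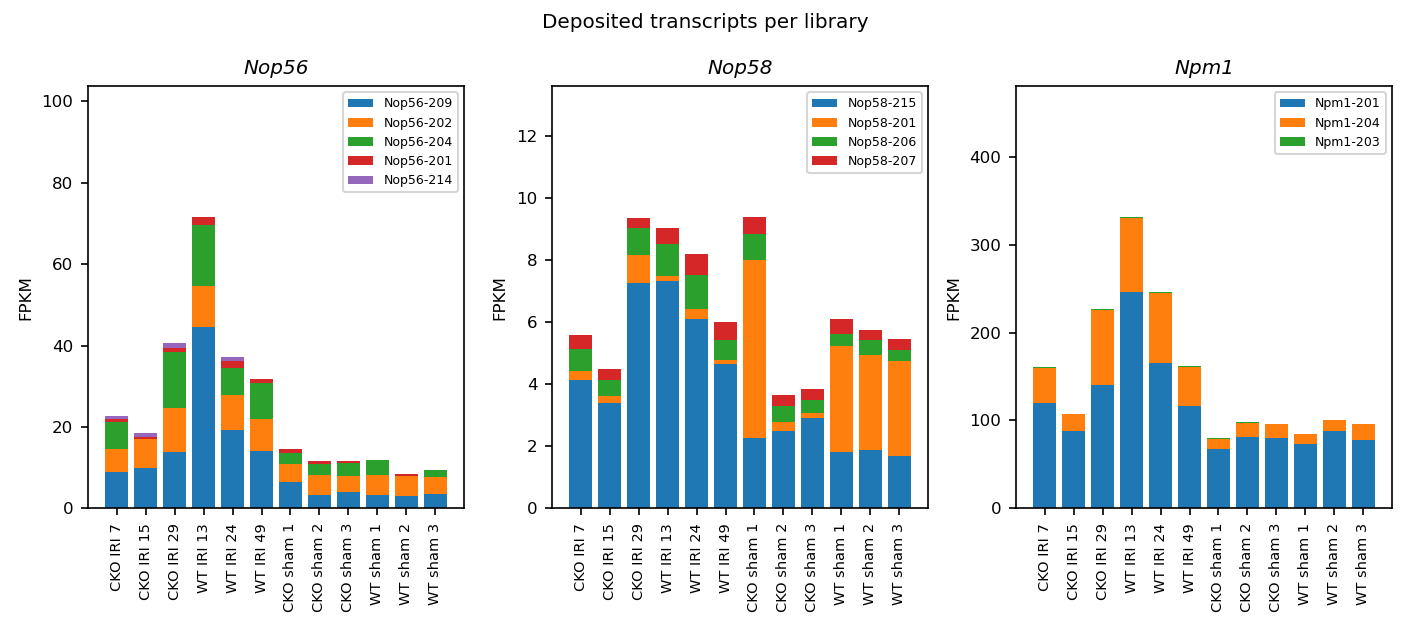
FPKM (vertical axes) of the deposited transcripts of Nop56, Nop58 and Npm1, stacked to the gene sum, in each library. Nop58-201 is a large part of the gene in WT sham libraries and in CKO sham 1 and a small part elsewhere, and Nop56-209 is largest in WT IRI 13 at 44.5 FPKM.

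A further list of 121 ribosome biogenesis genes that are not among the 42 gave 115 tested genes. In WT kidneys 54 rose and 1 fell, with a median change of 0.51, where 25.1% of tested genes rose. The largest rises were those of Exosc8, a subunit of the RNA exosome (1.75 ± 0.39, limma adjusted p = 0.0064), and Taf1b, a subunit of the RNA polymerase I selectivity factor (1.71 ± 0.46, limma adjusted p = 0.015). The WT sham values of Taf1b were all below 1 FPKM, the level of the filter. Eif6, which keeps new large subunits from joining small ones too early, measured 140.2, 124 and 88.7 FPKM in WT IRI libraries, against 46.7, 41.0 and 46.3 FPKM in WT sham libraries (1.36 ± 0.25, limma adjusted p = 0.0025). Zfp593, Lyar and Utp14a, further biogenesis factors, rose by 1.22, 1.16 and 1.12. Rcl1, a protein of the early small-subunit complex, was the one gene that fell, with 7.75, 9.37 and 7.97 FPKM in WT IRI libraries, against 13.8, 13 and 13 FPKM in WT sham libraries (-0.61 ± 0.11, limma adjusted p = 0.0026). All 3 WT IRI libraries lay below all 3 WT sham libraries.

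In CKO kidneys 1 of the 115 rose, Eif6, with 78.8, 51.9 and 111 FPKM in CKO IRI libraries, against 33.6, 40.3 and 41.1 FPKM in CKO sham libraries (0.99 ± 0.25, limma adjusted p = 0.037), where 5.70% of tested genes rose. None fell, and the median change was 0.18. Taf1b measured 4.39, 1.27 and 1.70 FPKM in CKO sham libraries, against 0.37, 0.37 and 0.64 FPKM in WT sham libraries. This genotype difference was not called (1.14 ± 0.33, limma adjusted p = 0.25). None of the 115 was called between genotypes in sham kidneys, after IRI or in the interaction. At an unadjusted p under 0.05 limma gave 13 higher and 2 lower in sham, 0 and 11 after IRI, and 1 and 19 in the interaction. The share of all tested genes at that threshold was not counted.

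The Myc network was listed with its partners and antagonists, 11 genes in all. In CKO kidneys 2 rose and none fell, where 5.70% of tested genes rose and 1.48% fell, and in WT kidneys 6 rose and none fell, where 25.1% rose and 11.9% fell. Myc measured 15.2, 7.01 and 20.1 FPKM in CKO IRI 7, 15 and 29 and 34.2, 28.3 and 13.8 FPKM in WT IRI 13, 24 and 49, against 5.55, 2.97 and 2.99 FPKM in CKO sham libraries and 4.41, 3.01 and 2.41 FPKM in WT sham libraries. All 6 IRI libraries were above all 6 sham libraries, with changes of 1.57 (limma adjusted p = 0.041) in CKO and 2.56 (limma adjusted p = 0.0012) in WT kidneys. Within each IRI group, the libraries stood in the same order for Myc as for the sum of the 42 genes. The sums of the cell cycle list and of the further ribosome biogenesis list stood in that order too. That of the proximal tubule markers stood in the reverse order. Whether Myc had a part in the changes of the 42 genes was not tested. Mxd3, a Max-binding antagonist expressed in dividing cells, rose by 1.95 in CKO and by 2.55 in WT kidneys. Mycn, Max, the partner that Myc needs to bind DNA, and the antagonists Mxd4 and Mnt rose in WT kidneys by 0.77, 0.70, 0.46 and 0.44 (limma adjusted p between 0.031 and 0.044). No gene of this list was called between genotypes or in the interaction, and at an unadjusted p under 0.05 limma gave 0 higher and 0 lower in sham, 0 and 2 after IRI, and 0 and 1 in the interaction.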

How the data were processed

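Libraries from total RNA were made by random priming with dUTP strand marking, per the labels' protocols. The submitters' processing notes name cutadapt, HISAT2 2.1.0 and StringTie, and a human genome build (GRCh38), although the transcript identifiers are mouse. The authors deposited 1 table of 25790 transcripts by 12 libraries, read here as FPKM, since the header names no unit and the libraries sum to different totals. A rescaling to TPM was an alternative. Each row has a group mean of at least 0.5. Identifiers were matched without version to GENCODE M21 (GRCm38), which left out 50 transcripts holding at most 0.103% of a library. Genes were summed, and 12469 with at least 1 FPKM in at least 3 libraries were tested with limma 3.58.1 (R 4.3.3, trend) on log2(FPKM + 1), two-sided, with Benjamini-Hochberg adjustment over them. IRI against sham and the interaction were fitted on all 12 libraries. Genotype within sham or within IRI was fitted on those 6 libraries alone, because IRI libraries spread more widely. Code was tested on simulated data. Reads are not countable from FPKM, so no count test was run, and depth is unknown. A value listed at 0 occurs for 6211 transcripts but for none of the 42 genes. No libraries were identical.

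The 42 genes, the further gene and marker lists and the tests were chosen with earlier results of these data known. Values in every library are given for the 2 genes of smallest p and the 1 of largest p per role in WT kidneys, and up to 3 of smallest p in each other comparison. Named among the further genes are the 6 largest called changes, those called the other way, and Myc with the called genes of its network. Nop10 and Tsr1, and the transcripts of Nop56, Nop58, Npm1 and Ubtf, were added after their values were seen. The rules above do not name Pes1, whose promoter window is printed. Alternatives were other pseudocounts, filters, scalings and array weights, a fit of only the groups compared, a replicate block in sham, and leaving out each library.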

Additional observations from a re-analysis of the deposited data

How the results depend on the processing

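The count of genes that rose in WT kidneys, 24 of 42, was 14 with median-ratio scaling and between 10 and 30 when a library was left out, the lowest without WT IRI 13. In CKO kidneys the count, 1, was 0 with quantile normalization, with median-ratio scaling and with only the 2 groups compared fitted, 12 with array weights, and between 0 and 6 when a library was left out. In the interaction, array weights gave 2 lower genes, beside 3.96% of tested genes, where the fit without them gave 0. The cause of these differences was not tested. Under the other alternatives these counts, and those of genes called between genotypes (0 in sham and 0 after IRI), stayed within 1.5 times. With 3 libraries in each group, a fit that left out a library had 2 in that group, whose spread was taken from all groups fitted.

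Of 3896 values of single genes under an alternative, 3758 kept their side of the threshold, 99 lost the call and 39 gained it. No called gene changed direction, while some genes not called, such as Mybbp1a, did. The median genotype change in sham, -0.01, lay between -0.08 and 0.04 over the alternatives. In sham kidneys CKO and WT libraries share the numbers 1 to 3, but deviations of same-numbered libraries were uncorrelated across genes (r = 0.004, -0.031 and -0.002). These values show no shared deviation by number, but cannot show whether same-numbered libraries were handled together. With these numbers as a replicate block 0 genes rose and 0 fell, as without it. IRI libraries carry different numbers in the 2 genotypes and no paired analysis was possible there. Read depth is unknown, so counting error could not be separated from spread.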
